A study of Mus musculus with 4 samples.

Results

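The clustered protocadherin genes of the mouse lie in the alpha, beta and gamma clusters, which follow each other on chromosome 18. They were taken as the protein-coding genes in the RefSeq table of build GRCm38 (mm10) whose symbols begin with Pcdha, Pcdhb or Pcdhg, which gave 57 of 21631 genes on the autosomes and X: 14 alpha, 22 beta and 21 gamma genes. Open chromatin at these genes was read from ATAC-seq of germ cells from female C57BL/6J fetal ovaries at E14.5 (embryonic day). In ATAC-seq the Tn5 transposase cuts and tags accessible DNA, and a peak marks a site with more tagged fragments than its surroundings. The deposited data were 1 combined peak list for the 2 Gata2WT samples and 1 for the 2 Gata2cKO samples. All peaks from 100 kb before the first to 300 kb after the last of the genes were taken, 62 of 49394 in the Gata2WT list and 56 of 44139 in the Gata2cKO list.

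Both groups came from the same cross, of Gata2flox/+ Prdm1-Cre males with Gata2flox/flox females, so every embryo carried at least 1 floxed Gata2 allele from its mother. Prdm1 is active in germ cell precursors, and in Gata2cKO embryos its Cre removes floxed Gata2, the gene of a zinc finger transcription factor. The labels do not say which of the alleles of this cross were called Gata2WT, which part of Gata2 was deleted, or whether embryos were pooled. Germ cells were enriched from trypsin-dissociated ovaries with anti-SSEA1 beads, and about 10000 cells went into each library. At Gata2 itself, on chromosome 6 from 88193891 to 88207032, a peak within 1 kb of a gene end stood in the Gata2WT list (−log10 q of 4.27) and none in the other, which does not check the genotype labels because the deleted part is unknown.

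Protocadherins are adhesion proteins of the cell surface that bind copies of themselves on neighbouring cells, and neurons use combinations of the clustered ones to tell their own branches from those of other cells. Each alpha and gamma gene is a variable first exon with a promoter of its own, spliced to constant exons that all genes of its cluster share, whereas each beta gene is read from its own exon alone. In neurons the promoters are chosen largely at random, except for the C-type genes (Pcdhac1, Pcdhac2, Pcdhgc3, Pcdhgc4 and Pcdhgc5), which are used more widely. The chromatin protein CTCF and the cohesin ring join chosen promoters to enhancers inside and beyond the clusters. Most promoters hold a conserved sequence element to which CTCF binds, and those of Pcdhac2, Pcdhb1, Pcdhgc4 and Pcdhgc5 lack it.

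The gene table has coordinates but no strand. The 21 gamma genes end within 10 bp of each other and the 14 alpha genes within 1240 bp, so their unshared lower coordinate was taken as the start, and the genes are 22.3 to 180 kb and 44.0 to 257 kb long. The beta genes are 2.34 to 5.27 kb long and share neither end. Because the 2 samples of a genotype were combined in 1 list, there is no error between replicates, and no test between genotypes was made. Shares carry a 95% Wilson interval, which reflects counting error alone. A list without a peak at a site may still have had open chromatin there, below the authors' threshold. The 57 genes are tandem copies of related sequence, and no mapping filter is given in the sources used here, so reads of near-identical stretches could be misplaced or missing.

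Depth was read from the peaks. The deposited fold enrichment compares the pileup of fragments at the summit with the local background, the pileup expected from the surroundings in the same pool. Solved together with the deposited −log10 p, it gives both numbers. The lowest local background, that of the genome at large, came to 2.19 fragments for Gata2WT and 2.01 for Gata2cKO, with a median pileup at summits of 19 in either list. Strength is given as the deposited −log10 q, the adjusted probability of the pileup under the local background, with a median of 6.72 in the Gata2WT and 7.14 in the Gata2cKO list. These values were not scaled between lists, so those of both lists stand side by side and no change is read from them. Of all 35334 Gata2WT peaks shared with the other list, 64.9% had the higher −log10 q in Gata2WT. Of the 44 such peaks in the stretch taken here, 32 did. Among marker genes of the labelled cells, all 10 germ cell genes had a Gata2WT peak within 1 kb of a gene end and 9 had a Gata2cKO peak, with none at Pou5f1. The ovarian supporting cell genes had one in 6 and 5 of 8, stromal and mesonephric genes in 3 and 2 of 4, endothelial genes in 2 of 4 in both lists, blood genes in 1 of 4 in both lists and neuronal genes in 3 and 4 of 4. These compare with 65.1% and 64.2% of all protein-coding genes. Open chromatin at a gene end does not show that a gene is read, so these counts do not measure how many cells of each type the libraries held.

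The gamma cluster held the most peaks and the beta cluster the fewest, in both lists. The 180 kb of gamma carried 28 Gata2WT and 23 Gata2cKO peaks, which is 15.5 and 12.8 per 100 kb. The alpha cluster, 259 kb long, carried 9 and 11 peaks (3.48 and 4.25 per 100 kb). The beta cluster, 256 kb long, carried 6 and 1 (2.34 and 0.39 per 100 kb). Per length the order was thus gamma, alpha, beta in both lists. Most of these peaks were weak and somewhat narrow: the median −log10 q was 3.31 and 2.97 in alpha and 5.65 and 4.83 in gamma, Gata2WT first, and the median width 478 and 467 bp in alpha and 475 and 444 bp in gamma, against 546 and 542 bp over the whole lists. The 6 beta peaks of Gata2WT had medians of 3.35 and 479 bp. No peak of either list lay in the 100 kb before the first alpha gene, while the 300 kb after the last gamma gene held 16 and 17.

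**Figure D1:**
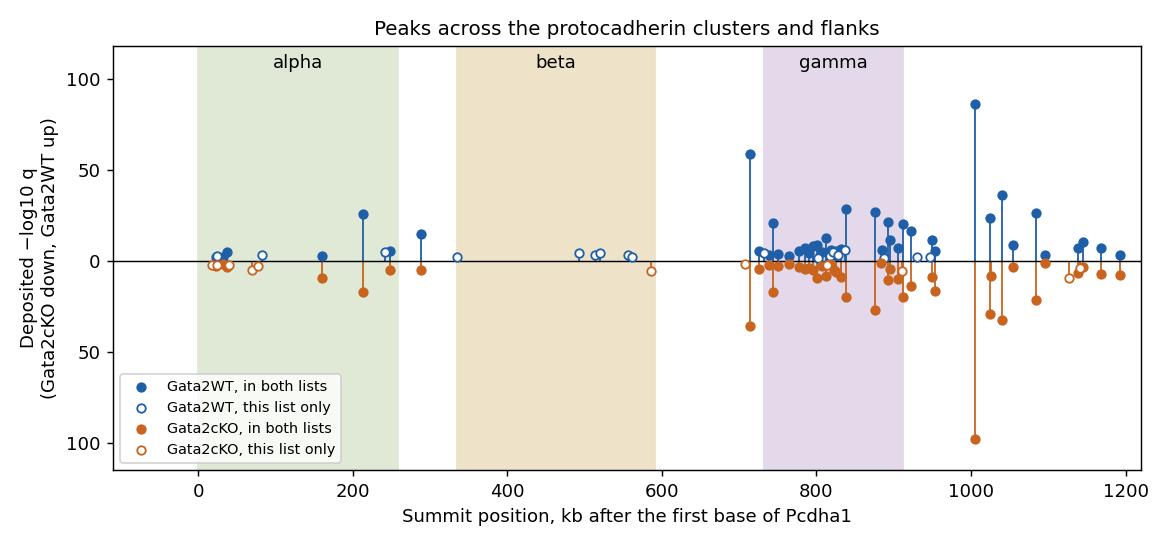
Deposited −log10 q of each peak against the position of its summit in kb after the first base of Pcdha1, with Gata2WT upwards and Gata2cKO downwards; shading marks the clusters, filled points are peaks present in both lists and open points peaks of 1 list. The strongest peaks lie outside the clusters, the gamma cluster is densely filled, and the beta cluster holds open points only.

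Over the whole window the share of single-list peaks was close to that of the whole lists. Of the Gata2WT peaks, 18 of 62 met no Gata2cKO peak (29.0%, 19.2 to 41.3), against 28.5% of the whole list. Of the Gata2cKO peaks, 11 of 56 met no Gata2WT peak (19.6%, 11.3 to 31.8), against 19.7%. An overlap of 1 bp counted as shared. In gamma, 21 peaks of each list were shared, with 7 in Gata2WT alone (25.0%, 12.7 to 43.4) and 2 in Gata2cKO alone (8.7%, 2.42 to 26.8). In alpha 6 of each list were shared, with 3 (33.3%, 12.1 to 64.6) and 5 (45.5%, 21.3 to 72.0) in 1 list alone. In beta none of the 6 and 1 was shared. The intervals of alpha and gamma overlap, for Gata2WT and for Gata2cKO peaks alike. This does not show that the shares are alike, and no test between clusters was made.

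**Figure D2:**
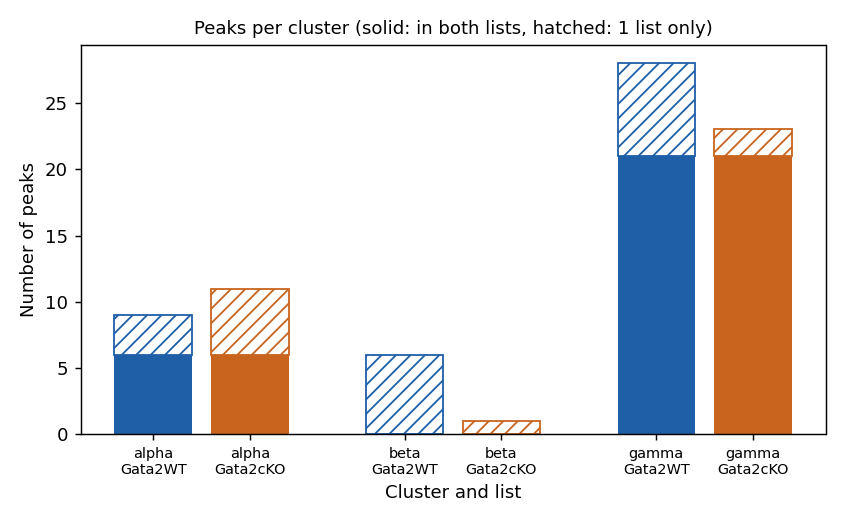
Number of peaks in each cluster and list, as stacked bars with solid parts for peaks found in both lists and hatched parts for peaks of 1 list. The solid part is 21 peaks in gamma and 6 in alpha for both lists, and there is none in beta.

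Weak peaks made up most of the single-list peaks. Inside the clusters 25 Gata2WT peaks had a −log10 q under 5, and 15 of them (60.0%) were in that list alone, against 58.5% of such peaks in the whole list. Of the 18 stronger ones 1 was (5.56%, against 7.61%). In the Gata2cKO list 5 of 20 weak peaks (25.0%, against 43.9%) and 3 of 15 stronger peaks (20.0%, against 4.74%) were in that list alone. The shares in the Gata2WT list were thus close to those of all its peaks of like strength, while in the Gata2cKO list they rest on 5 and 3 peaks.

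Gamma genes carry the homophilic isoforms best known for survival and self-avoidance of neurons. Of the 21 gamma genes, 18 had a Gata2WT peak within 1 kb of the start (85.7%, 65.4 to 95) and 14 a Gata2cKO peak (66.7%, 45.4 to 82.8). Of all protein-coding genes of known strand, 62.6% and 61.5% had one. The peaks lay close after the start, with a median summit position of 92 bp in Gata2WT and 94 bp in Gata2cKO, and covered the first base itself in 15 of the 18 and 11 of the 14 genes. They were weak beside those of other genes: their median −log10 q was 5.55 and 4.25, while the median strongest start peak over all genes of known strand that had one was 47.6 and 39.1.

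Gamma starts had a peak in 1 list alone more often than genes at large, although this rests on 4 genes. A start peak was in both lists at 14 genes (66.7%, against 60.6% of all genes), in Gata2WT alone at 4 (against 2.0%), in Gata2cKO alone at none (against 0.955%) and in neither at 3. The 4 genes are Pcdhga1 (−log10 q of 4.05, 12 fragments), Pcdhga10 (2.91, 20 fragments), Pcdhgb7 (4.63, 26 fragments) and Pcdhga12 (5.69, 25 fragments). The summit of the Pcdhga12 peak lay 1104 bp after the start, and only its edge came within 1 kb. Among weak peaks the count reads otherwise: of the 8 gamma genes with a Gata2WT start peak under a −log10 q of 5, 3 had none in Gata2cKO, against 41.8% of all genes with so weak a peak. Pcdhga4, Pcdhgb2 and the C-type gene Pcdhgc5 had no start peak in either list.

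**Figure D3:**
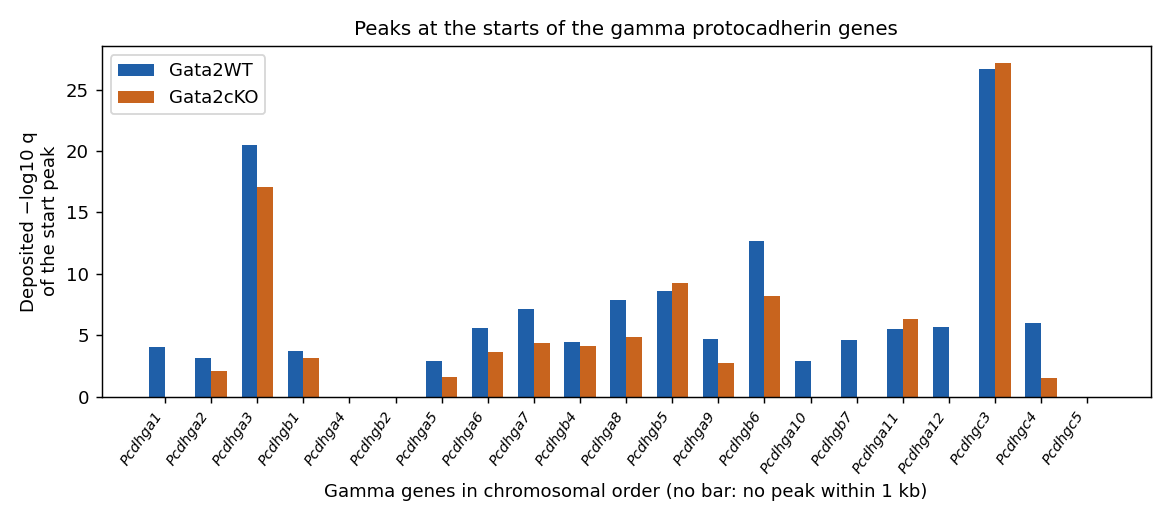
Deposited −log10 q of the strongest peak within 1 kb of the start of each gamma gene, in chromosomal order, with 1 bar per list. Pcdhgc3 and Pcdhga3 stand highest in both lists, and Pcdhga4, Pcdhgb2 and Pcdhgc5 have no bar.

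The strongest gamma start was that of the C-type gene Pcdhgc3, with a −log10 q of 26.7 in Gata2WT (52 fragments on a local background of 6.43) and 27.2 in Gata2cKO (48 on 5.13). The peak ran from 37806014 to 37807497 in Gata2WT and from 37806011 to 37807252 in Gata2cKO, and the summits lay 68 and 62 bp after the start. Pcdhgc4, the C-type gene whose protein the gamma cluster's role in neuron survival rests on, had a weaker peak, with 6.01 and 1.47. Its strongest summit lay before the start, at −503 bp in Gata2WT and −761 bp in Gata2cKO. The Gata2WT peak (37814381 to 37815781) had 2 summits and covered the first base of the gene. The Gata2cKO peak (37814161 to 37814604) ended before that base. The C-type genes of gamma thus held the strongest start, a weaker one and, at Pcdhgc5, none. Inside Pcdhgc5 a shared peak lay 3.23 kb after the start in Gata2WT (37822161 to 37823103, −log10 q of 21.3) and 3.22 kb in Gata2cKO (10.6).

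Among the other gamma genes, which belong to the A and B subfamilies, Pcdhga3 stood out in both lists. Its peak, 37674232 to 37674760 in Gata2WT, had a −log10 q of 20.5 with 34 fragments, and in Gata2cKO 17.1 with 30 fragments. The next strongest in Gata2WT was Pcdhgb6, with 12.7 (31 fragments) and in Gata2cKO 8.16 (21 fragments). In Gata2cKO it was Pcdhgb5, with 9.24 (21 fragments) and in Gata2WT 8.58 (20 fragments). Pcdhga7 and Pcdhga8 had 7.16 and 7.88 in Gata2WT and 4.38 and 4.83 in Gata2cKO. The weakest shared start was that of Pcdhga5, with 2.89 and 1.56 (13 and 8 fragments). The shared starts of Pcdhga2, Pcdhgb1 and Pcdhgb4 had 3.15, 3.67 and 4.48 in Gata2WT and 2.11, 3.12 and 4.12 in Gata2cKO. Those of Pcdhga6, Pcdhga9 and Pcdhga11 had 5.62, 4.69 and 5.49 in Gata2WT and 3.61, 2.73 and 6.28 in Gata2cKO. Within gamma, Pcdhgc3 and Pcdhga3 were thus the strongest starts in both lists. The summits of the 21 shared gamma peaks lay a median of 29.0 bp and at most 258 bp apart. The transcribed pseudogene Pcdhgb8, which is not among the 57 genes, also had a shared start peak, with 6.64 and 9.0 and summits 0 and 8 bp from its first base.

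The local background was high in the last part of the variable gamma genes and also around the C-type genes after them. At the start peak of Pcdhgc3 it was 6.43 in Gata2WT and 5.13 in Gata2cKO, and at that of Pcdhgc4 4.64 and 3.55. At the shared peak inside Pcdhgc5 it was 7.48 and 5.98. Between the starts of Pcdhga10 and Pcdhgc3 the Gata2WT list had 9 peaks on local backgrounds of 4.66 to 8.11 fragments, and the Gata2cKO list 5 on 4.51 to 6.32, where the medians of the whole lists are 3.25 and 3.19. This stretch was chosen after its values were seen. Of its 9 Gata2WT peaks 4 were in that list alone, against 28.5% of the whole list. The share over the list is 58.5% for peaks with a −log10 q under 5 and 7.61% for stronger ones. These 4, of 7 such peaks in gamma, had pileups of 19 to 26 fragments, at or above the median of the list, and a −log10 q of 2.91 to 5.69. All 5 Gata2cKO peaks there were shared. The strongest peak of the stretch was not at a start: it lay 2.58 kb after that of Pcdhga12 (37767974 to 37768461), with a −log10 q of 28.7 and 52 fragments in Gata2WT and 20.0 and 42 fragments in Gata2cKO.

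In the alpha cluster the start peaks belonged to few genes, and the same ones in both lists. They were Pcdha4, Pcdha6 and the C-type genes Pcdhac1 and Pcdhac2, 4 of 14 (28.6%, 11.7 to 54.6, against 62.6% and 61.5% of all genes). Pcdhac2 had the strongest, 37143459 to 37144576 in Gata2WT, with a −log10 q of 25.5 and 44 fragments in Gata2WT and 17.1 and 34 fragments in Gata2cKO. Pcdhac1 had 2.62 (10 fragments) in Gata2WT and 9.65 (18 fragments) in Gata2cKO, with summits at 44 and −153 bp from the start. Pcdha6 had 4.82 and 3.61 with the summit 101 bp after the start in both lists. Pcdha4 had 1.93 and 2.97 with summits 695 and 592 bp after it. Of the 12 variable alpha genes other than the C-type, 10 thus had no start peak in either list, and both C-type genes had one. The genes Gm37013, Gm38666 and Gm38667 run from starts near those of Pcdha4, Pcdha6 and Pcdha7 to the end of the gamma cluster, so the start peaks of Pcdha4 and Pcdha6 cannot be told apart from theirs.

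Past the variable alpha genes a shared peak lay 34.80 kb after the start of Pcdhac2 (37178305 to 37178782), with a −log10 q of 5.62 and 5.18. Another was in Gata2WT alone at 28.84 kb (37172313 to 37172717, 4.82). Between the alpha and beta clusters each list held 1 peak, and it was shared: 37218029 to 37218409, with its summit 29.3 kb after the alpha cluster in Gata2WT. It had a −log10 q of 15.0 and 24 fragments in Gata2WT and 5.18 and 13 fragments in Gata2cKO, both on the genome background. Enhancers of the alpha genes are known inside their constant region and between the clusters, but the tables used here hold no enhancer positions, so no peak was matched to one.

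The beta starts were nearly bare. Since no strand was at hand, either end was counted for beta genes, and 1 of 22 had a Gata2WT peak within 1 kb and another a Gata2cKO peak (4.55% each, 0.807 to 21.8), against 65.1% and 64.2% of all genes by either end. In Gata2WT it was Pcdhb1, whose first base lay under a weak peak (37264889 to 37265352, −log10 q of 1.97, 9 fragments). In Gata2cKO it was Pcdhb21, with a peak near its last base (37515544 to 37515969, 5.64, 14 fragments). Both were in 1 list alone, and 20 beta genes had a peak at neither end in either list.

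The remaining beta peaks lay inside genes, all at about the same place. In Gata2WT they were in Pcdhb11, Pcdhb13, Pcdhb14, Pcdhb17 and Pcdhb18, with summits 1.67 to 2.02 kb after the lower coordinate, which is the start as these genes are known to be read in the direction of the alpha and gamma genes. Their −log10 q ran from 1.97 to 4.05 and all were in Gata2WT alone. Of all Gata2WT peaks with a −log10 q under 5, 58.5% were in that list alone. The Pcdhb21 peak of Gata2cKO lay at 2.17 kb. Alpha genes showed peaks at a like distance: in Gata2WT in Pcdha4, Pcdha5 and Pcdha11, at 1.36 to 1.95 kb, and in Gata2cKO in Pcdha3, Pcdha4, Pcdha5, Pcdha6, Pcdha9 and Pcdha10, at 1.77 to 2.07 kb. Of these alpha peaks only that of Pcdha5 was shared, with 1.97 and 1.56, and the strongest was that of Pcdha9 in Gata2cKO alone (36999590 to 37000069, 5.18). Over the whole Gata2cKO list, 43.9% of peaks under a −log10 q of 5 and 4.74% of stronger ones were in that list alone.

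Counted over all 57 genes, 14 had a Gata2WT summit 1 to 3 kb after the start (24.6%), against 8.46% of all genes of known strand, and 11 a Gata2cKO summit (19.3%, against 8.07%). With the lower coordinate as the start of every member, 7 of the 57 genes in Gata2WT and 8 in Gata2cKO had such a summit and no peak within 1 kb of the start, a combination that 3.1% and 3.09% of all genes showed. This zone was set after the positions were seen, so the counts describe these lists only. In alpha and beta together, Pcdha4 and Pcdha5 had one in both lists, at Pcdha4 in peaks that did not overlap. The share of all genes with one in both lists was not computed, so no difference between the lists is read from these names. In gamma, Pcdhga10, Pcdhgb7 and Pcdhga12 had one in both.

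**Figure D4:**
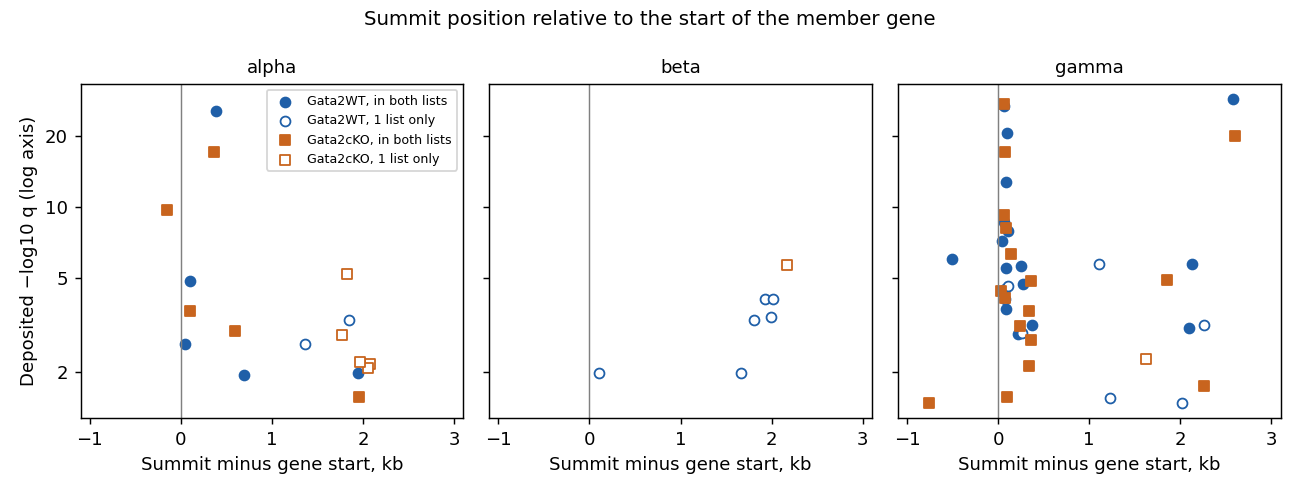
Deposited −log10 q (log axis) against the summit's distance in kb from the start of the gene, by cluster, for summits from 1 kb before to 3 kb after a start; circles are Gata2WT, squares Gata2cKO, filled for peaks in both lists and open for peaks of 1 list. Gamma summits gather just after 0, and beta summits, with 1 exception, lie between 1.67 and 2.17 kb.

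The strongest peaks of the window belonged to other genes. Taf7, a subunit gene of the general transcription factor TFIID between the beta and gamma clusters, had a shared end peak with a −log10 q of 58.7 and 35.6. After the gamma cluster the shared end peaks of Diaph1, an actin-nucleating formin, had 86.2 and 97.6, those of Fchsd1 35.9 and 32.4, and that between Hdac3, a histone deacetylase, and Rell2 23.4 and 29.2. Slc25a2 had a weak end peak in Gata2cKO alone (1.56), and Arap3 had none. Taf7, Diaph1 and Fchsd1 thus exceeded every clustered protocadherin start in both lists. At the other end of Diaph1 a shared peak (37841526 to 37843172 in Gata2WT, 20.4 and 19.8) also covered the last gamma base, with its summit 0.7 kb after it. Further shared peaks away from the ends of these genes lay 10.4 kb (16.3 and 14.0) and 172.2 kb (26.4 and 21.5) after the last gamma base. Single-list peaks with a −log10 q of 5 or more were 1 in Gata2WT, that of Pcdhga12 above, and 4 in Gata2cKO. Those are the peaks of Pcdha9 and Pcdhb21, a peak just inside the shared end of the gamma genes (37840705 to 37840966, 5.86, 27 fragments) and 1 beyond Arap3 (38056432 to 38056796, 9.22, 20 fragments).

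Unclustered protocadherins are single genes with ends of their own. Of 12 of them 9 had a peak within 1 kb of either end in both lists and 3 in neither (Pcdh9, Pcdh12 and Pcdh15), against 62.8% of all protein-coding genes with one in both. The strongest was that of Pcdh17, with 41.2 and 28.4, and Pcdh19 had 23.4 and 23.9. Genes of the machinery that acts on the clusters had such peaks in both lists at 21 of 24, and in neither at 3 (Rad21, Dnmt3a and Dnmt1). Ctcf, whose protein holds the promoter loops, had 43.6 and 43.8, Smchd1, a silencer of clustered genes, 73.8 and 69.4, and Dnmt3b, which methylates variable promoters, 19.7 and 23.1. Of 10 genes of signalling partners 9 had one in both lists. Axin1, of the WNT pathway, had one in Gata2cKO alone (2.49).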

How the data were processed

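Per the submitters' processing notes, the build was GRCm38 (mm10) and the software included MACS2 2.2.6, Bowtie2 2.3.5.1, Trimmomatic 0.39, Picard 2.23.0, bedtools 2.29.2 and SAMtools. Their settings, the Tn5 shift and the way replicates were combined are not stated in the labels. The deposited fold enrichment is the ratio of summit pileup to local background within a pool, with 1 added to each. Its probability stands beside it as a deposited −log10 p, of 3.0 or more, and as a −log10 q. The deposited score, not used, repeats the −log10 p.

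Rows with the same interval were merged to the strongest summit (58367 to 49394 Gata2WT and 52241 to 44139 Gata2cKO peaks on 19 autosomes and X). Pileups were solved as whole numbers, within 0.001 in −log10 p, for 100.0% of peaks of each list. On simulated data 100.0% of 1956 pileups and 100.0% of 1000 overlaps were recovered. The simulated pileups came from the same formula that was solved, and the simulated peaks stood far apart, so this checks the code alone. Peaks were given to clusters by summit. Work was done in Python 3.11.15 with pandas 2.3.3, scipy 1.17.1 and statsmodels 0.14.6. Starts of other genes used the strand in the RefSeq promoter table, which held 17274 protein-coding genes and 0 of the 57 members, so no promoter sequence is shown.

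The members and lists were chosen with earlier results of these data known. Named are all members with a start peak, the C-type genes, the 10 strongest peaks of the window in each list, single-list peaks with a −log10 q of 5 or more, and neighbouring genes with an end peak. Alternatives covered the overlap rule, threshold, list length, merging and start window.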

Additional observations from a re-analysis of the deposited data

How the results depend on the processing

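No paired analysis was possible because the samples of each genotype were combined in 1 list, and for the same reason no sample could be left out. Of 122 values recomputed under 10 settings, 98 stayed within 1.5 times the value reported and 24 did not. The threshold moved the most. With a −log10 q of at least 5 in both lists, shared peaks came to 2 in alpha, 0 in beta and 9 in gamma in either list. Single-list peaks came to 0 in alpha, 0 in beta and 7 in gamma for Gata2WT. For Gata2cKO they came to 2 in alpha, 1 in beta and 1 in gamma. Of the 16 gamma Gata2WT peaks of this strength, 1 met no Gata2cKO peak of any strength. Start peaks, by either end for beta genes, came to 1 alpha, 0 beta and 10 gamma genes in Gata2WT. In Gata2cKO they came to 2 alpha, 1 beta and 5 gamma genes. The beta gene is Pcdhb21, whose peak lies near its last base and is counted again in the next sentence. Summits 1 to 3 kb after a start were then 0, 0 and 3 in alpha, beta and gamma in Gata2WT, and 1, 1 and 1 in Gata2cKO. When each peak had to cover at least 50% of the other, 5 alpha peaks were in Gata2WT alone and 4 gamma peaks in Gata2cKO alone. A start window of 2000 bp gave 8 alpha genes in Gata2cKO and 6 beta genes in Gata2WT. This wider window reached the peaks inside alpha and beta genes described above, so the added genes are not further starts with a peak of their own. With both lists at 44139 peaks, 0 beta genes had a start peak in Gata2WT, and 4 beta peaks in Gata2WT alone were left of 6. Counting only the lower coordinate of beta genes, a setting chosen after seeing the data, 0 had one in Gata2cKO. Gamma held the most start peaks in every setting. The weakest peaks rest on 8 or 9 fragments, so depth limits what the lack of such a peak in the other list shows.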
